A study of Mus musculus with 39 samples.

Results

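Zscan4c, Zscan4d, Zscan4f, Tcstv1, Tcstv3 and Zfp352 belong to the genes known for a short burst of expression in the mouse 2-cell embryo. They were chosen by name, and a probe was taken for a gene when its RefSeq accession mapped to that symbol in the mouse annotation. Of the 6 listed genes, 4 had a probe (Zscan4c, Tcstv1, Tcstv3 and Zfp352), and these 4 genes were read by 8 of the 41174 probes on the array. Zscan4c had 2 probes, Tcstv1 had 3, Tcstv3 had 1 and Zfp352 had 2. Zscan4d and Zscan4f had no probe under their own names. The Zscan4 copies are close to identical, so a probe listed for Zscan4c may also have read the other copies.

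RNA was profiled on 1-colour Agilent arrays in oocytes, fertilized embryos, cumulus-cell clones and cumulus cells, all from (B6xDBA/2)F1 mice. The experiment asked how gene expression in somatic cell nuclear transfer (SCNT) embryos differs from that after fertilization, and what trichostatin A (TSA), a histone deacetylase inhibitor, or injected Spi-C mRNA changes. Unfertilized metaphase II oocytes (OC) gave 7 arrays and in vitro fertilized 2-cell embryos (IVF) gave 6. Cumulus-cell clones at the 2-cell stage gave 8 arrays without TSA, called TSA(–), and 6 after 5 nM TSA for 8 h from activation, called TSA(+). Clones that received Spi-C mRNA in the cytoplasm at the pronuclear stage (Spi-C NT) gave 4 arrays at 1.0 mg/ml and 4 at 0.1 mg/ml, and the nuclear donor cumulus cells gave 4. All SCNT groups thus shared the donor cell type, and embryos were cultured for 24 h. Each of the 39 arrays held the pooled RNA of 10 oocytes or embryos, or of 500 cumulus cells. The labels call the arrays of a group biological replicates. No injected control without Spi-C mRNA was analysed here.

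Zscan4 proteins are zinc finger proteins with a SCAN domain, known for their part in telomere lengthening and genome stability in mouse embryonic stem cells. Zfp352 encodes a zinc finger protein, and the Tcstv genes encode small proteins found at the 2-cell stage and in rare embryonic stem cells that resemble it. These genes are switched on during zygotic genome activation, with the factor Dux among their known activators, and are silenced again soon after. In pooled RNA, fewer embryos or blastomeres expressing a gene and less RNA per cell cannot be told apart.

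Levels are log2 intensity relative to the 75th percentile of the same array, so that 0 is the level of a probe at that percentile. A gene or probe is said to be higher or lower where limma, fitted over all 39517 probes with enough signal, gave an adjusted p under 0.01. All 8 probes were among those tested and each gene was counted once, by the probe with its highest mean level. The p-values measure the spread between these samples. The median share of probes well above background was lowest in OC at 57.5% and in cumulus cells at 63.0%. It was 73.2% for IVF, 72.3% for TSA(–), 72.0% for TSA(+), and 73.2% and 71.6% for Spi-C NT at 1.0 and 0.1 mg/ml. The median of the arrays' 75th percentiles was an intensity of 392 in OC and 1116 in IVF. The Spi-C NT and cumulus arrays were read on another scanner model with a later software version than the other arrays.

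**Figure D1:**
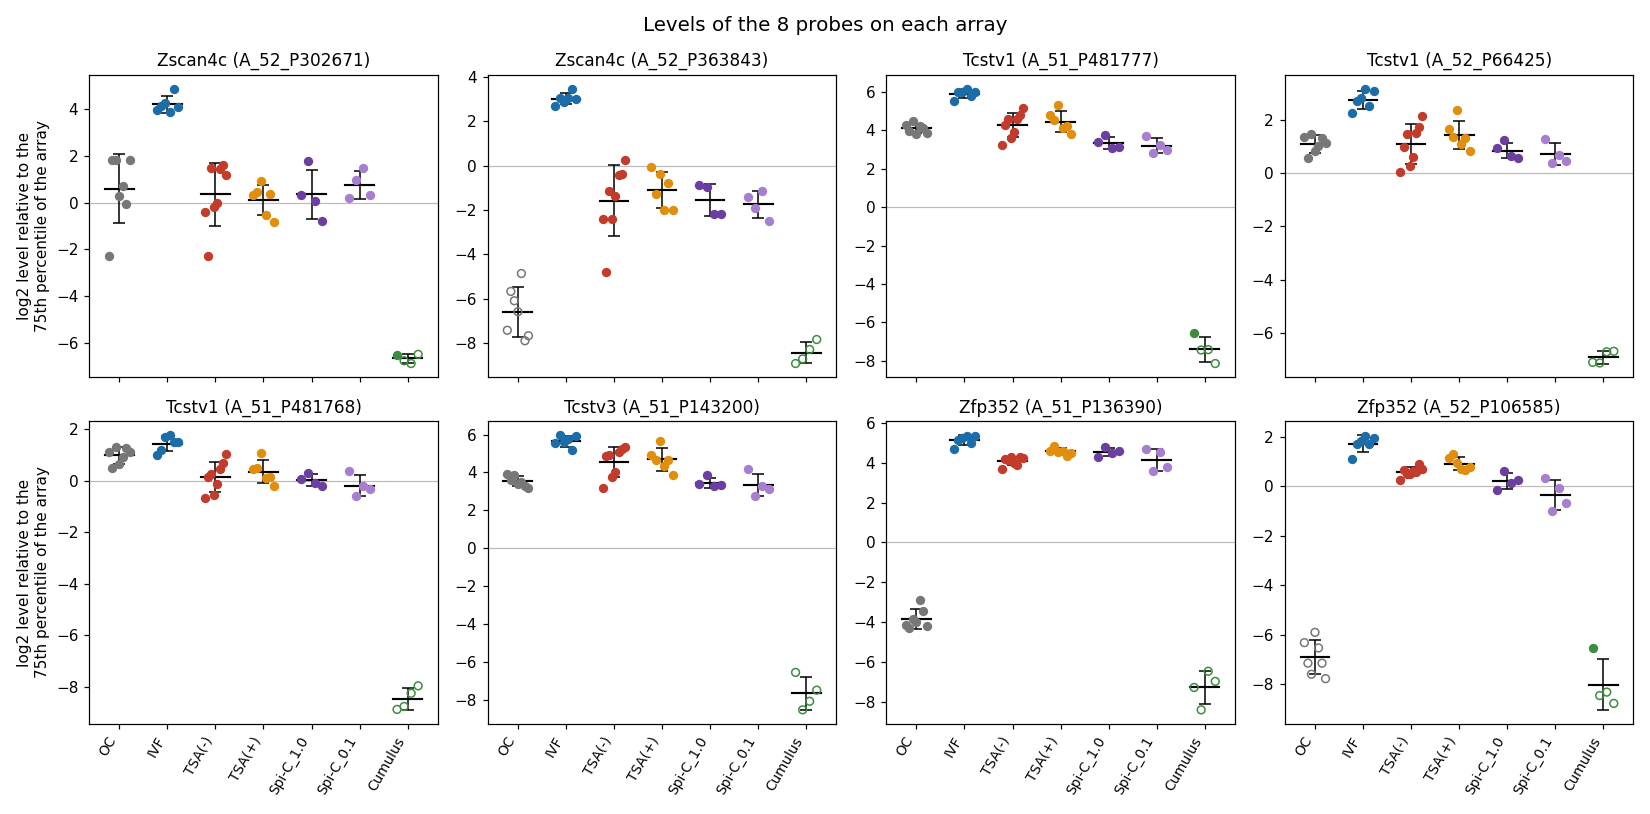
Level of each of the 8 probes (log2 intensity minus the array's 75th percentile, y axis) on every array of the 7 groups (x axis), filled where well above background, with bars for the mean ± SD. All 8 probes had their highest group mean in IVF embryos, and cumulus cells had the lowest for every probe.

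Fertilized 2-cell embryos were first set against oocytes, to compare the embryo with the cell it starts from. All 4 genes were higher in IVF than in OC, where 65.9% of all probes changed, 23.4% being higher and 42.5% lower. The members' median difference was 2.87 on the log2 scale, against -0.87 over all probes. Scaling moved that overall median to -1.59 with median centring and -0.29 with quantile normalization, and the 4 genes stayed higher under both.

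Zfp352 was low in oocytes by both of its probes. With probe A_51_P136390 the OC arrays ran from -4.28 to -2.90 with a median of -3.99, and the IVF arrays from 4.70 to 5.34 with a median of 5.20. The groups lay far apart, and even the dimmest IVF array was above every oocyte array. The level was 496-fold higher in IVF, a log2 difference of 8.95 (95% CI 8.48 to 9.42; limma adjusted p = 2.69e-23). This size depended on the processing, and other settings gave from 7.30 to 8.95. The second Zfp352 probe, A_52_P106585, was not well above background on any of the 7 OC arrays, so only a bound is given. It was at least 127-fold higher in IVF (adjusted p = 7.69e-21). Such bounds set the mean of the brighter group against, on each array of the dimmer group, the larger of the probe's own signal and the lowest signal found well above background.

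Zscan4c, the only Zscan4 copy with a probe under its name, was read above background in oocytes by 1 probe and not by the other. With A_52_P302671 the OC arrays ranged from -2.27 through a median of 0.73 to 1.85, all 7 well above background, and the IVF arrays from 3.88 through 4.13 to 4.88. No array overlapped, although the oocyte arrays were widely spread and replicate 1 was the lowest. The difference was 3.61 (95% CI 2.45 to 4.77), a 12.2-fold higher level in IVF with an adjusted p of 1.76e-06. Other settings, the mean over both probes among them, gave from 2.88 to 6.62. Probe A_52_P363843 was not well above background on any OC array and ran from 2.70 to 3.47 in IVF, at least 316-fold higher (adjusted p = 4.29e-15). The 2 probes therefore disagreed on the size of the rise and on whether oocytes held the transcript.

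The Tcstv genes were already well above background in every oocyte array and rose less. Tcstv1 (A_51_P481777) ran from 3.81 to 4.49 in OC, median 4.12, and from 5.50 to 6.14 in IVF, median 5.96. Tcstv3 (A_51_P143200) ran from 3.20 to 3.91 in OC, median 3.48, and from 5.17 to 5.97 in IVF, median 5.68. Neither gene had an oocyte array within the IVF range. Tcstv1 was 3.46-fold higher in IVF (difference 1.79, 95% CI 1.24 to 2.35; adjusted p under 0.01) and Tcstv3 4.35-fold higher (2.12, 95% CI 1.45 to 2.79; adjusted p = 1.45e-06). These sizes depended on the scaling, with 1.06 and 1.39 after median centring and 3.21 and 3.37 after quantile normalization. The other Tcstv1 probes disagreed with each other. A_52_P66425 was higher by 1.66 (adjusted p = 5.90e-06), while A_51_P481768 differed by 0.46 with an adjusted p of 0.0947 and overlapping arrays. It differed by -0.27 after median centring and by 0.82 after quantile normalization (adjusted p = 0.00753, higher).

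Arrays were spread over 12 slides and 7 scan days. On the 2 slides that held both OC and IVF arrays, the IVF minus OC difference was 2.98 and 3.43 for Zscan4c (A_52_P302671), 1.77 and 1.84 for Tcstv1 (A_51_P481777), 2.16 and 2.48 for Tcstv3, and 8.05 and 8.98 for Zfp352 (A_51_P136390). On 4 scan days with both groups, all 4 genes were above 0 each time. With slide as a random block the differences were 3.62, 1.79, 2.12 and 8.95 in the same order.

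The next comparison, of TSA(–) with IVF, asked which of these transcripts were short in clones. In TSA(–) 3 of the 4 genes were lower, where 18.6% of all probes changed, 8.68% being higher and 9.94% lower. The members' median difference was -1.36, against -0.03 over all probes.

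Zscan4c fell furthest. With A_52_P302671 the TSA(–) arrays ran from -2.28 to 1.60 with a median of 0.58, below the 3.88 to 4.88 of the IVF arrays. Every clone array lay under every IVF array, and replicate 2 was the lowest. The difference was -3.86 (95% CI -4.99 to -2.73; adjusted p = 3.40e-06), so that clones held 6.88% of the IVF level. A_52_P363843 gave -4.61 (95% CI -5.76 to -3.46; adjusted p = 2.76e-07), with TSA(–) arrays from -4.78 to 0.26, median -1.24. Leaving out each array in turn kept the A_52_P302671 difference between -4.04 and -3.48.

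Tcstv1 was lower with all 3 probes. Its A_51_P481777 arrays ran from 3.23 to 5.15 in TSA(–), median 4.42, all under the lowest IVF array at 5.50. The difference was -1.62 (95% CI -2.16 to -1.08; adjusted p = 2.27e-05), 32.5% of the IVF level, and the other probes gave -1.66 and -1.29. Tcstv3 had a similar shape but did not pass. Its TSA(–) arrays ran from 3.18 to 5.36, median 4.91, and the upper ones overlapped the IVF range. Replicates 1, 4 and 5 were the low ones, at 3.18, 3.79 and 4.04. The Tcstv3 difference was -1.09 (95% CI -1.75 to -0.44) with an adjusted p of 0.0102. That p was 0.00952 without IVF replicate 5, and 0.00851, 0.00650 and 0.00558 without TSA(–) replicates 6, 7 and 8, with differences from -1.21 to -1.17. Over all single arrays left out, the adjusted p ranged from 0.00558 to 0.0253. Tcstv3 also passed, making 4 of 4, with normexp (0.00286), the authors' value table (0.00818), a filter on signal above background (0.00732) and all 7 groups fitted together (0.00611).

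Zfp352 was lower with both of its probes. The A_51_P136390 arrays ran from 3.69 to 4.28 in TSA(–), median 4.17, with all 8 under the lowest IVF array at 4.70. The difference was -1.05 (95% CI -1.50 to -0.59; adjusted p = 0.000620), 2.06-fold lower, and A_52_P106585 gave -1.14 (adjusted p = 0.00257), a call lost with quantile normalization (-1.21, adjusted p = 0.0307). Zfp352 in clones thus remained 240-fold above oocytes (difference 7.91, adjusted p = 4.41e-23). That difference ran from 6.28 to 7.91 over other settings. Zscan4c in clones had a mean of 0.35 beside 0.60 in oocytes with A_52_P302671, a difference of -0.25 (95% CI -1.33 to 0.83; adjusted p = 0.671), which was 0.13 without TSA(–) replicate 2. With A_52_P363843 Zscan4c was at least 12.9-fold above oocytes. The mean over the 2 probes, of which this one was not well above background in oocytes, was also higher than in oocytes (adjusted p = 8.14e-05).

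Within the 3 slides that held both groups, the TSA(–) minus IVF difference ran from -6.27 to -2.43 for Zscan4c (A_52_P302671), from -1.55 to -1.22 for Tcstv1 (A_51_P481777), from -1.27 to -0.65 for Tcstv3 and from -1.44 to -0.51 for Zfp352 (A_51_P136390). All were below 0, on these slides and on the 4 scan days shared. With slide as a random block the differences were -3.83, -1.61, -1.08 and -1.04.

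Against oocytes, 2 of the 4 genes were higher in TSA(–), Tcstv3 and Zfp352, where 69.9% of all probes changed, 23.6% being higher and 46.3% lower, and the median shift was -0.98. Tcstv3 was higher by 1.03 (adjusted p = 0.00344). This call was lost with median centring, where the difference was 0.35 (2.39 with quantile normalization), and with Tukey's test (adjusted p = 0.0206), and it was kept without any single array. On the 4 slides that held both groups the Tcstv3 difference ran from -0.43 to 1.97, below 0 on 1 of them, and it was 1.03 with slide as a random block. Tcstv1 (A_51_P481777) differed from oocytes by 0.17 (adjusted p = 0.547). Its direction followed the scaling, with -0.51 after median centring and 1.67 after quantile normalization (adjusted p = 5.26e-07, higher). Its probe A_51_P481768 was lower by -0.83 (adjusted p = 0.00195), so the Tcstv1 probes disagreed here, although that call was lost with quantile normalization (-0.57, adjusted p = 0.0395). The TSA(+) clones gave the same count against oocytes, 2 of 4, where 71.1% of all probes changed, 22.3% being higher and 48.8% lower, and the median shift was -1.18. Zscan4c differed by -0.48 with A_52_P302671 (adjusted p = 0.438) but was at least 18.2-fold higher with A_52_P363843 (adjusted p = 9.28e-10), so the count depended on the probe. Tcstv3 was higher by 1.16 (adjusted p = 0.00230) and Zfp352 by 8.38, and without TSA(+) replicate 3 the Tcstv3 difference was 0.96 with an adjusted p of 0.0103. The Tcstv3 call was also lost with median centring (0.66, adjusted p = 0.0646) and with Tukey's test (adjusted p = 0.0142). Tcstv1 (A_51_P481777) differed by 0.35 (adjusted p = 0.234), by -0.14 after median centring and by 1.86 after quantile normalization (adjusted p = 3.15e-07, higher). Its probe A_51_P481768 differed by -0.64 (adjusted p = 0.0218). That probe was called lower after median centring (-1.13, adjusted p = 0.000297) and without TSA(+) replicate 3 (-0.78, adjusted p = 0.00632). Only 1 slide held TSA(+) and OC arrays, and it gave 0.75 for Tcstv3 and 8.86 for Zfp352.

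The donor cells carried almost none of these transcripts. In cumulus cells Zscan4c (A_52_P302671) was read at -6.53, -6.78, -6.89 and -6.50 and Tcstv1 (A_51_P481777) at -6.56, -7.43, -7.41 and -8.13. Of these, 1 array of 4 was well above background for each gene. Tcstv3 and Zfp352 (A_51_P136390) were not well above background on any cumulus array, while the second Zfp352 probe, A_52_P106585, was on 1 of the 4. All 4 genes were higher in TSA(–) clones than in their donor cells, where 54.9% of all probes changed, 30.5% being higher and 24.5% lower, and the median shift was 0.11. After median centring that shift was -0.73, and 36.0% of the probes that changed were higher instead of 55.5%. The difference was at least 2056-fold for Tcstv3 and at least 1518-fold for Zfp352. No slide held both TSA(–) and cumulus arrays, and the cumulus arrays shared 1 slide and the later scanner, so an effect of the slide or scanner cannot be told apart there from one of the cells.

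TSA-treated clones were compared with fertilized embryos and with untreated clones, to see whether the inhibitor moved these genes. In TSA(+), 2 of the 4 genes were lower than in IVF, where 18.8% of all probes changed, 8.02% being higher and 10.8% lower. The balance of all probes turned with median centring, when 62.1% of those that changed were higher instead of 42.7%. The members' median difference was -1.20 and that of all probes -0.22. The contrast uses the same IVF arrays as that of TSA(–) with IVF.

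Zscan4c (A_52_P302671) ran from -0.82 to 0.91 in TSA(+), median 0.35, with every array below IVF. The difference was -4.09 (95% CI -5.30 to -2.89; adjusted p = 4.04e-06), and A_52_P363843 gave -4.12. Tcstv1 (A_51_P481777) ran from 3.78 to 5.29, median 4.36, again under every IVF array, with a difference of -1.44 (95% CI -2.02 to -0.86; adjusted p = 0.000243). For Tcstv3 the TSA(+) arrays spanned 3.88 to 5.68, median 4.66, and overlapped IVF; the difference was -0.96 with an adjusted p of 0.0334. Zfp352 (A_51_P136390) ran from 4.33 to 4.84, median 4.56. Its highest TSA(+) array reached into the IVF range, and the difference was -0.57 (95% CI -1.06 to -0.08; adjusted p = 0.0735). Zfp352 passed the threshold when only the groups compared were fitted or with normexp background correction. Across all settings its difference ran from -0.69 to -0.34 and the adjusted p from 0.000570 to 0.354. On the 3 slides shared by TSA(+) and IVF the differences were from -4.16 to -3.65 for Zscan4c, -1.51 to -0.73 for Tcstv1, -1.13 to -0.62 for Tcstv3 and -0.81 to -0.14 for Zfp352, and with slide as a random block -4.08, -1.43, -0.96 and -0.56.

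Between TSA(+) and TSA(–), limma called 0 of the 4 genes at an adjusted p under 0.01, where 0.137% of all probes, 54 in number, changed, 0.043% being higher and 0.0936% lower. At an unadjusted p under 0.05 it picked 1 gene, Zfp352, and 6446 probes. Tukey's test, called under 0.01, picked 0 of the 4 genes and 804 probes, but its p for a pair of groups was not adjusted over probes. With median centring 39 probes were higher and 20 lower, the reverse of the balance before. The members' median difference was 0.16, against -0.11 over all probes. Zfp352 (A_51_P136390) was 0.48 higher after TSA (95% CI 0.02 to 0.93), with a limma adjusted p of 0.284. Over other settings this difference ran from 0.40 to 0.66 and the adjusted p from 0.0208 to 0.332, so it depended on the fit without passing 0.01. All 6 of its TSA(+) arrays, from 4.33 upward, lay above all 8 TSA(–) arrays, which reached 4.28. The second Zfp352 probe differed by 0.33 with overlapping arrays (adjusted p = 0.597). Zscan4c differed by -0.23 (95% CI -1.36 to 0.90) and by 0.49 with its other probe (95% CI -0.66 to 1.64). Single arrays moved these values widely, from -0.61 to -0.0436 and from 0.0334 to 0.75, with the outermost -0.61 and 0.0334 both without TSA(–) replicate 2. Tcstv1 differed by 0.18 (95% CI -0.36 to 0.72). Tcstv3 differed by 0.13 (95% CI -0.52 to 0.78), and by -0.07 without TSA(–) replicate 1 or without TSA(+) replicate 3. Only 1 slide held both groups, with 1 array each. There the difference was 2.62 for Zscan4c (A_52_P302671), 0.50 for Tcstv1, 0.04 for Tcstv3 and 0.38 for Zfp352, and with slide as a random block the values were -0.25, 0.18, 0.13 and 0.48. That slide held the TSA(–) array with the lowest Zscan4c level. On the 3 scan days with both groups the differences ran from -1.55 to 2.19 for Zscan4c, from -0.24 to 0.16 for Tcstv1, from -0.48 to -0.04 for Tcstv3 and from 0.24 to 0.49 for Zfp352. Zscan4c and Tcstv1 were above 0 on 1 of these days, Tcstv3 on 0 and Zfp352 on all 3.

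**Figure D2:**
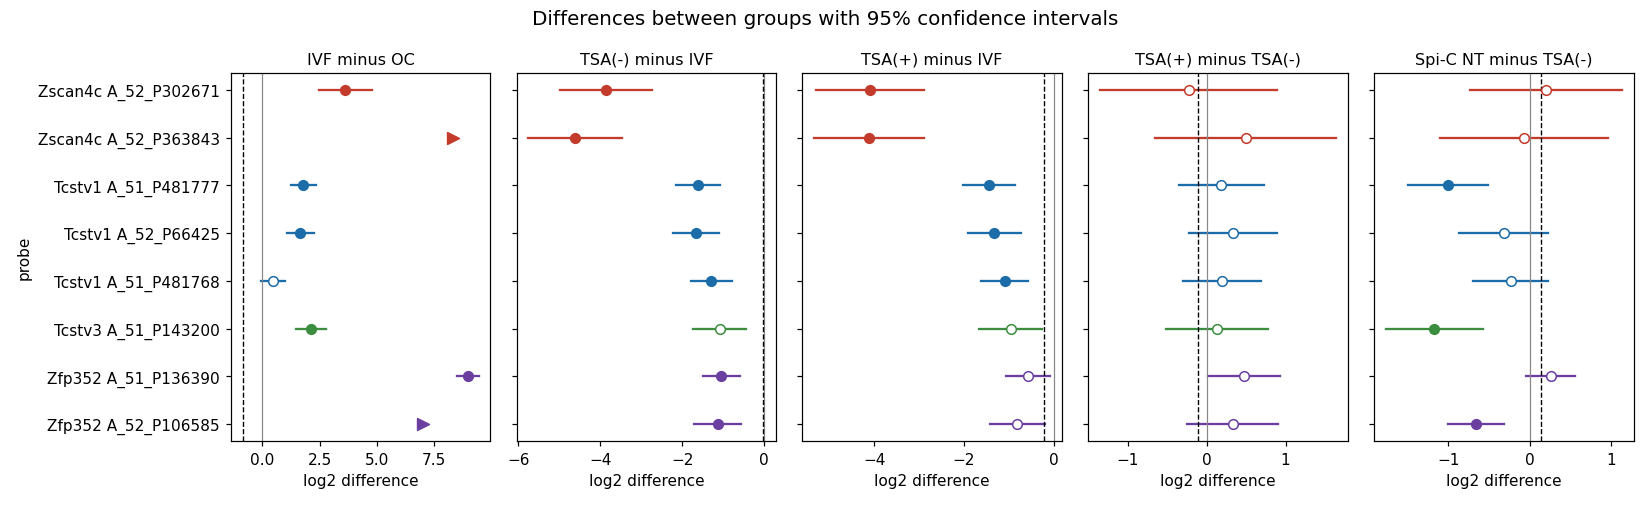
Log2 differences between groups (x axis) for each of the 8 probes (y axis) in 5 comparisons, with 95% confidence intervals as lines. Filled points had a limma adjusted p under 0.01, open points did not, triangles are lower bounds against a group not well above background, and the dashed line is the median of all probes. Zscan4c lies near -4 against IVF with and without TSA, and all intervals but that of Zfp352 A_51_P136390 (0.02 to 0.93) cross 0 between TSA(+) and TSA(–).

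Spi-C, also called Spic, is an ETS-family transcription factor, and its own probes served as a look at the injected groups. With probe A_51_P389885 the Spi-C NT arrays were read at 1.41, 1.77, 1.63 and 1.11 for 1.0 mg/ml and at 1.66, 1.52, 1.58 and 1.53 for 0.1 mg/ml. The TSA(–) arrays ran from 1.58 to 2.55, so the injected groups were not above the untreated clones, and the difference was -0.52 (adjusted p = 0.0101). Probe A_52_P361323 gave -0.48 (adjusted p = 0.0225). Whether these probes lie in the injected sequence was not tested, so they do not check the labels.

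In Spi-C NT 2 of the 4 genes were lower than in TSA(–), Tcstv1 and Tcstv3, where 20.8% of all probes changed, 11.9% being higher and 8.93% lower. The balance of all probes turned with the scaling, as 57.1% of those that changed were higher here, 37.2% with median centring and 23.7% with normexp. The median difference was -0.40 for the members and 0.14 for all probes. Tcstv1 (A_51_P481777) was read at 3.39, 3.72, 3.09 and 3.11 with 1.0 mg/ml and at 3.72, 2.83, 3.21 and 2.99 with 0.1 mg/ml. Most of these arrays lay below the lowest TSA(–) array at 3.23, and the rest within the TSA(–) range. The level was 49.9% of that in TSA(–) (log2 95% CI -1.49 to -0.52; adjusted p = 0.00188). The other Tcstv1 probes did not pass, with -0.32 and -0.24 (adjusted p = 0.387 and 0.455), nor did the mean over the probes (-0.52, adjusted p = 0.104). Tcstv3 was read at 3.38, 3.84, 3.26 and 3.32 and at 4.18, 2.76, 3.28 and 3.13. Its arrays lay among or below the lower TSA(–) arrays, and the difference was -1.17 (95% CI -1.77 to -0.58; adjusted p = 0.00275). Tcstv3 did not pass with only the groups compared in the fit (adjusted p = 0.0118). With replicate number as a block neither gene passed, though the differences stayed near these sizes. They were -0.81 for Tcstv1 (adjusted p = 0.0265) and -0.97 for Tcstv3 (adjusted p = 0.0365).

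Zscan4c and Zfp352 did not pass by the probe counted. Zscan4c (A_52_P302671) was read at 0.35, 1.77, 0.08 and -0.78 with 1.0 mg/ml and at 0.20, 0.99, 1.48 and 0.34 with 0.1 mg/ml, within the TSA(–) range apart from 1.77. The difference was 0.20 (95% CI -0.73 to 1.13; adjusted p = 0.780) and -0.07 with A_52_P363843. The first of these was -0.18 without TSA(–) replicate 2 and -0.0355 without replicate 2 of 1.0 mg/ml. Zfp352 (A_51_P136390) was read at 4.28, 4.81, 4.49 and 4.58 and at 4.69, 3.56, 4.56 and 3.78. Most of these arrays were at or above the TSA(–) maximum of 4.28, and replicates 2 and 4 of the lower concentration were below it. The difference was 0.26 (adjusted p = 0.189), while A_52_P106585 was lower by -0.66 (95% CI -1.01 to -0.31; adjusted p = 0.00383), so the Zfp352 probes pointed in opposite directions. That second call was lost without Spi-C NT replicate 1 of 1.0 mg/ml (-0.60, adjusted p = 0.0105) or replicate 2 or 4 of 0.1 mg/ml (-0.55 and -0.60, adjusted p = 0.0110 and 0.0105). It was also lost with all 7 groups fitted together (adjusted p = 0.0560) and with only the groups compared (0.0122). The Spi-C NT arrays shared no slide, scan day or scanner with the other embryos, so batch and injection cannot be told apart.

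Against IVF all 4 genes were lower in Spi-C NT, where 36% of all probes changed, 19.4% being higher and 16.6% lower, and the median shift was 0.15. Of the probes that changed, 53.9% were higher here, 45.1% with median centring and 24.4% with normexp. The differences were -3.66 for Zscan4c (A_52_P302671), -2.63 for Tcstv1, -2.26 for Tcstv3 and -0.79 for Zfp352 (A_51_P136390), with adjusted p from 5.52e-09 to 0.000196. The Zfp352 call was lost with quantile normalization (-0.53, adjusted p = 0.0118). The caution about scanner and slide holds here too. Between the 1.0 and 0.1 mg/ml groups limma called 0 of the 4 genes, where 0.00506% of all probes, 2 in number, changed. At an unadjusted p under 0.05 it picked 0 of the 4 genes by the probe counted, 1 of their 8 probes and 1611 of all probes. Tukey's test, called under 0.01, picked 0 of the 4 and 55 probes. The differences were -0.40 for Zscan4c (95% CI -1.71 to 0.92), 0.14 for Tcstv1 (95% CI -0.55 to 0.83), 0.11 for Tcstv3 (95% CI -0.73 to 0.95) and 0.39 for Zfp352 (95% CI -0.03 to 0.82). Single arrays left out moved Zscan4c from -0.87 (without replicate 2 of 1.0 mg/ml) to -0.0191 (without replicate 4), and Zfp352 from 0.20 to 0.57. Both slides held both concentrations, and Zscan4c differed by 0.46 on one and by -1.26 on the other, while Zfp352 differed by 0.42 and 0.37. By the other probes, Zscan4c A_52_P363843 differed by 0.19 and Zfp352 A_52_P106585 by 0.55 between the concentrations.

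The order of the groups differed between the genes below the IVF maximum. For Zscan4c (A_52_P302671) the means fell from 4.21 in IVF to 0.75 in Spi-C 0.1 mg/ml, 0.60 in OC, 0.35 in Spi-C 1.0 mg/ml, 0.35 in TSA(–), 0.12 in TSA(+) and -6.68 in cumulus cells. IVF and cumulus cells stood clear of their neighbours and all groups between them overlapped in turn. For Tcstv1 (A_51_P481777) the order was IVF 5.88, TSA(+) 4.45, TSA(–) 4.26, OC 4.09, Spi-C 1.0 mg/ml 3.33, Spi-C 0.1 mg/ml 3.19 and cumulus cells -7.38. Gaps without overlap lay after IVF, between OC and Spi-C 1.0 mg/ml, and before the cumulus cells. Tcstv3 went from IVF at 5.66 over TSA(+) 4.70, TSA(–) 4.57, OC 3.54, Spi-C 1.0 mg/ml 3.45 and Spi-C 0.1 mg/ml 3.34 to -7.66, with only the cumulus cells clear of their neighbour. For Zfp352 (A_51_P136390) the order was IVF 5.13, TSA(+) 4.56, Spi-C 1.0 mg/ml 4.54, Spi-C 0.1 mg/ml 4.15, TSA(–) 4.09, OC -3.82 and cumulus cells -7.27. Here each embryo group overlapped the next, and OC and cumulus cells stood clear below. These orders depended on the probe. With Zscan4c A_52_P363843, OC lay at -6.60, clear below every clone group. With Tcstv1 A_51_P481768, OC came next after IVF, at 0.98 beside 0.35 in TSA(+). With Zfp352 A_52_P106585, Spi-C at 1.0 and 0.1 mg/ml (0.20 and -0.35) lay below TSA(–) at 0.58.

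Spread between arrays of a group varied with the gene and the group. The SD of Zscan4c (A_52_P302671) was 0.35 in IVF, 1.35 in TSA(–) and 1.49 in OC. Zfp352 (A_51_P136390) had an SD of 0.25 in IVF, 0.21 in TSA(–) and 0.17 in TSA(+), but 0.49 in OC and 0.56 in Spi-C NT at 0.1 mg/ml. Tcstv3 had an SD of 0.29 in IVF and 0.80 in TSA(–), and the difference in spread between groups was not tested.

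Whether the genes moved together from array to array was examined within OC, IVF, TSA(–) and TSA(+), in 24 relations between gene pairs. Tcstv1 and Tcstv3 had a positive r in all 4 groups, with the lowest p in clones. Over the 8 TSA(–) arrays r was 0.974 and rho 1, with an exact permutation p of 2.48e-05, the smallest these arrays can give, and 0.000595 after Benjamini-Hochberg adjustment over the 24. Without the 2 arrays farthest from the median of Tcstv1, r was 0.920. Over the 6 TSA(+) arrays r was 0.976 and rho 1 (exact permutation p = 0.00139, the smallest possible; adjusted 0.0167), and r was 0.913 without the 2 farthest. For the same pair r was 0.735 over 7 OC arrays and 0.474 over 6 IVF arrays, with rho 0.714 in both and adjusted exact permutation p of 0.260 and 0.669. In IVF, Tcstv1 and Zfp352 had r = 0.956 over 6 arrays (exact permutation p = 0.00417, adjusted 0.0333), with rho 0.943 (adjusted permutation p = 0.133) and r = 0.850 without the 2 farthest. Zscan4c with Tcstv1 and with Tcstv3 gave r = 0.883 and 0.910 in TSA(+) (both 0.0733 after adjustment of the exact permutation p), and 0.550 and 0.446 in TSA(–), where they were 0.902 and 0.943 without the 2 arrays farthest from the median of Zscan4c. The same pairs had negative r elsewhere, -0.192 and -0.740 in IVF and -0.151 and -0.323 in OC, but these signs also rested on few arrays. Without the 2 farthest they were 0.803 and 0.134 in IVF and 0.286 and 0.370 in OC. Among the other relations the lowest adjusted exact permutation p of r was 0.427, for Tcstv3 and Zfp352 in TSA(–). Each slide or scan day held few arrays of a group, and r within them was not computed. TSA(–) replicates 1 and 4, both low for Tcstv3, shared a slide. A shared property of the arrays and shared expression cannot be told apart. Tcstv1 and Tcstv3 are similar in sequence, so shared binding to their probes was not tested.

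AF067063, a further Tcstv-family gene, was the only one outside the members with a probe, of 13 listed genes of which 3 had one. The counted probe of its 2, A_51_P512119, had medians of 0.08 for OC, 5.25 for IVF, 4.83 for TSA(–) and 5.49 for TSA(+). It was 35.3-fold higher in IVF than in OC (difference 5.14, adjusted p = 4.19e-19), while TSA(–) differed from IVF by -0.42 (adjusted p = 0.124) and TSA(+) from TSA(–) by 0.63 (95% CI 0.22 to 1.04; adjusted p = 0.105). The other probe, A_52_P597818, gave 4.96, -0.54 and 0.58 in the same comparisons, with adjusted p of 7.08e-18, 0.0675 and 0.173. The family's median difference was 2.12 for IVF against OC and -1.09 for TSA(–) against IVF. Of 6 listed Zscan4 genes only Zscan4c had a probe.

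Other genes known for expression at the 2-cell stage were looked at as a list of 44, of which 18 had a probe. In IVF against OC 13 were higher and 5 lower, beside 23.4% and 42.5% of all probes, with a median difference of 3.76 (3.69 with the 4 genes not well above background in one group set to their bound), against -0.87 for all probes. Ddit4l, a regulator of TOR signalling, was at least 2520-fold higher in IVF. Gm5662 was higher by 10.14, with 6 of 7 OC arrays well above background, and the phosphate transporter gene Slc34a2 by 8.79. The deubiquitinase gene Usp17la was also higher, but only 1 of 7 OC arrays was well above background for it. In TSA(–) against IVF 0 were higher and 10 lower with limma, beside 8.68% and 9.94% of all probes, with a median of -1.14 against -0.03 for all probes. Gm428 was lower by -2.46, Gm5662 by -2.36, Usp17la by -1.86 and Gm8300 by -1.80. In TSA(+) against IVF 8 were lower, beside 10.8% of all probes, with a median of -0.90 against -0.22, and none of the 18 passed limma's threshold between TSA(+) and TSA(–), where the median was 0.15. Spi-C NT against TSA(–) gave 2 higher and 3 lower, beside 11.9% and 8.93% of all probes, with a median of -0.16 against 0.14. Other settings gave 0 to 2 higher and 2 to 6 lower, and single arrays left out 1 to 2 and 3 to 5. Gm8300 was lower by -1.89, Gm5662 by -1.33 and Rfpl4 by -0.71, and Eif1ad was higher by 0.83. Over other settings the counts ran from 11 to 14 higher and 2 to 5 lower for IVF against OC, from 8 to 13 lower for TSA(–) against IVF and from 4 to 12 lower for TSA(+) against IVF. With single arrays left out the last 2 ran from 7 to 10 and from 6 to 8.

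Known or proposed regulators of the 2-cell programme were taken as a list of 19, all with a probe. In IVF against OC 7 were higher and 11 lower, beside 23.4% and 42.5% of all probes, with a median of -2.0 against -0.87. Dppa4, an activator of Dux, was higher, though only 3 of 7 OC arrays were well above background for it. Spic was higher by 4.71 and Chaf1b, a subunit of the chromatin assembly factor CAF-1, by 4.54. Ehmt1, an H3K9 methyltransferase, was lower by -5.28. In TSA(–) against IVF 3 were higher and 4 lower, beside 8.68% and 9.94% of all probes, with a median of -0.04 against -0.03. Other settings gave 1 to 4 higher and 2 to 5 lower. The T-box factor gene Tbx3 was lower by -3.03, Spic by -1.89 and Nelfa, a maternal activator of 2-cell genes, by -0.75, and Ehmt1 was higher by 1.63. TSA(+) against TSA(–) gave 0 calls with limma. Spi-C NT against TSA(–) gave 2 higher and 5 lower, beside 11.9% and 8.93% of all probes. The lower ones included the repressor genes Setdb1 by -0.75, Zmym2 by -0.72 and Trim28 by -0.55, and Nelfa by -0.57. These counts were unstable, from 0 to 3 higher and 0 to 7 lower over other settings, and from 1 to 3 and 4 to 6 with single arrays left out.

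Named genes were compared with the members' mean profile over the 7 groups, each centred on its own mean. Only genes well above background on every IVF array, where the members were highest, were taken, 14646 in number. The members' profile was -8.91 in cumulus cells and from -0.56 to 3.56 in the other groups, so the cumulus level weighed heavily in the distances. The closest genes were Gm11487, Tktl1, Pak7, Zscan5b and Gbx2. Their root mean square log2 distances were 0.50, 0.51, 0.52, 0.55 and 0.55, against a median of 3.83 over the genes compared. The members themselves lay at 0.83 (Tcstv3), 0.93 (Tcstv1), 1.32 (Zscan4c) and 2.08 (Zfp352) from their mean.

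Maternal and somatic RNA were followed with marker lists. The summed level of 10 oocyte markers, relative to the 75th percentile on a linear scale, had a median of 4355 for OC, 878 for IVF, 799 for TSA(–), 734 for TSA(+), 575 and 543 for Spi-C NT at 1.0 and 0.1 mg/ml, and 2.87 for cumulus cells. The largest signal came from the Oosp1 probe on every OC array, and from Oosp1 or Oog1 in IVF, which does not rank the amounts of these RNAs. In cumulus cells 3 to 4 of the 10 were well above background. The 11 cumulus and granulosa markers summed to 235 in cumulus cells, with the largest signal from Cyp11a1, and to 286 in OC, with the largest from Cyp19a1. For IVF the sum was 6.06, for TSA(–) 3.63, for TSA(+) 2.43, and for Spi-C NT 3.41 and 3.07. Of these 11, 10 were well above background in cumulus cells, 5 to 9 in OC and 7 to 9 in IVF. The OC and cumulus sums were thus led by different genes, and the OC sum does not measure leftover cumulus RNA. The part of maternal RNA or of leftover cumulus RNA in the members' differences was not tested, though the members themselves were at or near background in cumulus cells.

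Zscan4c, Tcstv1 and Zfp352 all rose from OC to IVF and were lower in TSA(–). Of these, Tcstv1 had no window before its start. The stretches before the starts are shown for Zfp352, Zscan4c and Zscan4d. RefSeq (build GRCm38.p6) gave a window of 250 bases before the start for 4 of the 6 genes, Zfp352 on chromosome 4 and the 3 Zscan4 genes on chromosome 7. The windows lie at chr4:90218570-90218819 on the + strand for Zfp352, chr7:11005495-11005744 on the + strand for Zscan4c, chr7:11166149-11166398 on the – strand for Zscan4d and chr7:11397665-11397914 on the + strand for Zscan4f. They were searched on both strands for the homeodomain core TAATCC, the TATA box, an ETS site of the Spi-C kind, a Dux site and a Zscan4 site. Capitals mark the homeodomain core, the TATA box and the Dux site on either strand.
Zfp352: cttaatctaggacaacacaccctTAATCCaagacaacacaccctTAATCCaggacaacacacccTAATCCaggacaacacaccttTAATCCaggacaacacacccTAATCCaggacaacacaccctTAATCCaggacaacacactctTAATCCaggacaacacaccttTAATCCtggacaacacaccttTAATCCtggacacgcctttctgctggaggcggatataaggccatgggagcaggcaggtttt
Zscan4c: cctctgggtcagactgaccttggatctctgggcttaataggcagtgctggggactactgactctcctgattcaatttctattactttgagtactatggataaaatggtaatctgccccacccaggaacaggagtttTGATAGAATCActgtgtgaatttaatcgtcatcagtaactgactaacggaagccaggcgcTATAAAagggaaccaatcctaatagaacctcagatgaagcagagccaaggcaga
Zscan4d: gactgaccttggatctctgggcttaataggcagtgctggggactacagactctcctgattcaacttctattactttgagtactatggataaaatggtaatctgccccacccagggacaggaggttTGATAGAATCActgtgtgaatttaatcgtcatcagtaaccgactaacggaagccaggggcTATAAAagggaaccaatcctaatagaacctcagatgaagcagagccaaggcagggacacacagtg

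The Zfp352 window held 9 copies of TAATCC on its own strand, in a run of near-identical repeats. Of 32851 windows from 27025 genes, 6.25% held TAATCC at all and only 1, that of Zfp352, held at least 9. Each of the 3 Zscan4 windows held 1 TATAAA, starting 54 bases before the gene's start in Zscan4c, 65 in Zscan4d and 31 in Zscan4f, and 1 Dux site on the other strand. TATAAA was found in 12.4% of all windows and the Dux site in 0.177%, or 58. The ETS site (2.44% of windows) and the Zscan4 site (3.67%) were in none of the 4. The Zscan4c and Zscan4d windows matched at 97.5% of 238 aligned bases and the Zscan4c and Zscan4f windows at 99.6% of 227. These matches are descriptions of the letters only, and binding to them was not tested.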

How the data were processed

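The authors extracted 1-colour signals with Agilent Feature Extraction 9.5.3.1, the version in their processing notes; per the file headers the Spi-C NT and cumulus arrays used a later one. The deposited files give each spot's processed intensity, background-subtracted by that software. The authors' value table, used as an alternative, held log2 values relative to the 75th percentile and each probe's median, with column medians from -0.297 to 1.08. Here log2 intensity was taken relative to each array's 75th percentile, outlier and control spots were left out, spots of a probe were averaged, and probes never reaching 10 in an IVF or SCNT array were not tested.

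Tests used lmFit and eBayes (limma 3.58.1, R 4.3.3), two-sided, with Benjamini-Hochberg adjustment over all probes. OC, IVF, TSA(–), TSA(+) and cumulus arrays shared one fit, the embryo groups another for Spi-C NT, taken as the mean of both concentrations. The code was tested on simulated data. Named list genes are up to 4 called genes with the largest difference in 4 comparisons. Members and lists were chosen with earlier results of these data known. Alternatives covered scaling, background, filters, groups fitted, blocks, thresholds, Tukey's test, probe averaging and single arrays left out. The adjusted p given for Tukey's test is the larger of its p for the pair and the Benjamini-Hochberg p of the one-way test. Its counts of probes are therefore not held to the same error rate as those of limma. Figures used matplotlib 3.10.9 and alignments Biopython 1.88.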

Additional observations from a re-analysis of the deposited data

Results flagged for a closer look

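In IVF the second Zfp352 probe, A_52_P106585, was read at 1.09 on the array of replicate 1, apart from the other 5 arrays, of which the nearest was at 1.70 and the highest at 2.04. The gap to the nearest array was 0.641 of the group's range, above Dixon's 95% critical value for 6 samples. It was the only array to stand apart in 56 sets of a probe and a group, and chance alone marks about 1 in 20 such sets.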

How the results depend on the processing

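The count of members called depended most on the settings in the comparisons of clones with OC and of Spi-C NT with TSA(–). For TSA(–) against OC it was 1 instead of 2 with median centring, with Tukey's test and with the replicate block (Tcstv3 0.91, adjusted p = 0.0167), and 3 with quantile normalization and with the mean over a gene's probes. For TSA(+) against OC it was 1 instead of 2 with median centring and Tukey's test, 3 with quantile normalization and the mean over probes, and from 1 to 2 with single arrays left out. For TSA(–) against IVF it was 3 to 4, for TSA(+) against IVF 2 to 3 and for Spi-C NT against IVF 3 to 4. For Spi-C NT against TSA(–) it was 1 when only the groups compared were fitted or the mean over a gene's probes was used, and 0 with the replicate block, which also took the TSA(–) against IVF call from Zfp352 A_52_P106585 (adjusted p = 0.0135) and that of Spi-C NT against TSA(–) (0.0572). Some differences that had not passed the threshold changed sign. IVF against OC, Tcstv1 A_51_P481768, was -0.27 with median centring and passed at 0.82 with quantile normalization. TSA(+) against TSA(–), Zscan4c A_52_P302671, was 0.11 with the replicate block and 0.13 as the mean over probes. TSA(–) against OC was 2.39 for Zscan4c, then called higher (adjusted p = 8.14e-05), and -0.22 for Tcstv1 as means over probes, -0.51 for Tcstv1 A_51_P481777 with median centring, and 0.38, 0.11 and 0.00727 for Tcstv1 A_52_P66425 with quantile scaling, normexp and the slide block. TSA(+) against OC was 2.52 for Zscan4c as the mean over probes, then called higher (0.000101), means that take in a probe not well above background in OC, and -0.14 and -0.16 for Tcstv1 A_51_P481777 and A_52_P66425 with median centring. Spi-C NT against TSA(–) was 0.62 for Zscan4c A_52_P363843 with the replicate block and -0.20 for Zfp352 as the mean over probes. With single arrays left out, sign changes were met in TSA(+) against TSA(–) for Tcstv3 (-0.0696 to 0.29), in TSA(–) against OC for Zscan4c A_52_P302671 (-0.73 to 0.13) and Tcstv1 A_52_P66425 (-0.15 to 0.15), in Spi-C NT against TSA(–) for Zscan4c (-0.18 to 0.39 and -0.53 to 0.19) and in Spi-C 1.0 against 0.1 mg/ml for Zscan4c A_52_P363843 (-0.0620 to 0.41) and Tcstv3 (-0.0776 to 0.39). The cause was not tested. Replicate numbers did not pair the arrays, since same-numbered arrays of different groups correlated at -0.0875 to 0.151.

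The number of all probes called also moved. TSA(+) against TSA(–) went from 54 to 373 with normexp, 7 with only the groups compared, 117 with all 7 groups fitted, 804 with Tukey's test, 508 at an adjusted p under 0.05, and 21 to 93 with single arrays left out. Spi-C NT against TSA(–) went from 8223 to 16791 with normexp, 3455 with a 2-fold minimum, 12424 at 0.05 and 5304 with the replicate block. Spi-C NT against IVF went from 14244 to 24196 and 8891 with normexp and the 2-fold minimum, TSA(+) against IVF from 7428 to 11406 at 0.05, and Spi-C 1.0 against 0.1 mg/ml from 2 to 55 with Tukey's test. The share of calls that were higher moved from 35.5% to 24.0% with median centring and 18.7% with normexp in IVF against OC, from 57.1% to 37.2% and 23.7% in Spi-C NT against TSA(–), and from 55.5% to 36.0% and 35.0% in TSA(–) against cumulus cells. With median centring it moved from 42.7% to 62.1% in TSA(+) against IVF and from 31.5% to 66.1% in TSA(+) against TSA(–). With normexp it moved from 53.9% to 24.4% in Spi-C NT against IVF, from 33.8% to 18.2% in TSA(–) against OC and from 31.4% to 17.7% in TSA(+) against OC. Array number and signal over background in OC and cumulus cells limit these values.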
